A study of Mus musculus with 4 samples.

Results

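The results concern 10 immediate early genes, Fos, Fosb, Jun, Junb, Atf3, Egr1, Nr4a1, Klf6, Ier2 and Dusp1, followed across the leukocytes of B16 melanomas. The 10 were chosen as known genes of the early activation and dissociation response, with no threshold on their values. Earlier results of these data were known when they were chosen. All 10 were among the 31053 genes counted in both libraries. They were read in cell barcodes with at least 1000 UMIs (unique molecular identifiers, each 1 captured RNA molecule), at least 500 genes and at most 10% mitochondrial UMIs.

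The leukocytes came from B16 tumours, a transplantable melanoma line of C57BL/6 mice, grown in the flank of male C57BL/6 mice and taken on day 12. The mice were ATPIF1 knock-out (KO) or wild-type (WT). ATPIF1 is a small protein that inhibits the ATP synthase of mitochondria. The labels do not describe the knockout allele, whether it was in all cells of the mouse, the age of the mice, or whether the stated number of 6 mice was per genotype. Tumour suspensions of each genotype were mixed, digested at 37 °C, sorted for CD45 and loaded on a droplet chip, which gave 1 5′ RNA library and 1 T cell receptor library per genotype. With 1 pool per genotype no difference between genotypes has a replicate check and none was tested. Ranges given in parentheses are 95% intervals that cover counting error alone.

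Immediate early genes are switched on within minutes of a stimulus without new protein synthesis, because the factors that read their promoters, such as SRF with its ETS partners, CREB and NFAT, are already present and are activated by kinases. Their products are mostly transcription factors that set the next wave of transcription, and their RNAs are short-lived. In leukocytes they respond to antigen receptors, growth factors, microbial products and stress, and the same genes are known to be induced by enzymatic digestion of tissue. Fos and Fosb encode FOS proteins that pair with the JUN proteins encoded by Jun and Junb to form the dimeric factor AP-1. Atf3 encodes a stress-induced partner of the same leucine zipper class. Egr1 encodes a zinc finger factor downstream of ERK signalling, Nr4a1 the orphan nuclear receptor NUR77, widely used as a reporter of antigen receptor signalling, and Klf6 a Krüppel-like zinc finger factor. Ier2 encodes a small nuclear protein without a known DNA-binding domain, and Dusp1 a phosphatase that switches off p38 and JNK and so limits the response.

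In the RefSeq annotation of GRCm38.p6, the mm10 build of the submitters' processing notes, the 10 genes lie on 9 chromosomes. Junb (ENSMUSG00000052837) spans chr8:84976909-84978748 and Ier2 (ENSMUSG00000053560) chr8:84661331-84662852. Fos (ENSMUSG00000021250) spans chr12:85473890-85477274, Fosb (ENSMUSG00000003545) chr7:19302696-19310118 and Jun (ENSMUSG00000052684) chr4:95049036-95052222. Atf3 (ENSMUSG00000026628) spans chr1:191170296-191183333, Nr4a1 (ENSMUSG00000023034) chr15:101253902-101274795, Klf6 (ENSMUSG00000000078) chr13:5861489-5870393 and Dusp1 (ENSMUSG00000024190) chr17:26505591-26508472. Egr1 is ENSMUSG00000038418. Promoter sequences from RefSeq were matched for 8 of the 10, and the promoters of Egr1 and Ier2 were not analysed here. In the 250 bases before the annotated start, on either strand, the core of the cyclic AMP response element bound by CREB and ATF factors, TGACG, was found in 6 of 8 members, Fos, Fosb, Junb, Nr4a1, Atf3 and Dusp1, and in 17.8% of 32851 promoters. The full palindrome TGACGTCA, which contains the core on both strands, was found in Dusp1 alone of the 8 and in 1.55% of all promoters. The AP-1 site TGANTCA was found in none of the 8 and in 6.75% of promoters, and the CArG box read by SRF in none of the 8 and in 1.47%. A match describes letters in this window and not binding. Sites outside the window and variants of these letters were not searched. Below are the stretches from 10 bases before the first core match to the start site in 4 of the 6 members, shown because together they hold cores on the gene's strand, cores on the opposite strand and the palindrome. Capitals mark TGACG or its complement CGTCA, and in Dusp1 also the full palindrome.
Fos (chr12:85473751-85473889, plus strand): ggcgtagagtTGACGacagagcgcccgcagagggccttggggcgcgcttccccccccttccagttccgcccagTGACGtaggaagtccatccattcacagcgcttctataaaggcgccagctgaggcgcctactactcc
Junb (chr8:84978749-84978864, minus strand): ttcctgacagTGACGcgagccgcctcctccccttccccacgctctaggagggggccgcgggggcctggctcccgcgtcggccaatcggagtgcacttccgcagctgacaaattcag
Nr4a1 (chr15:101266603-101266845, plus strand): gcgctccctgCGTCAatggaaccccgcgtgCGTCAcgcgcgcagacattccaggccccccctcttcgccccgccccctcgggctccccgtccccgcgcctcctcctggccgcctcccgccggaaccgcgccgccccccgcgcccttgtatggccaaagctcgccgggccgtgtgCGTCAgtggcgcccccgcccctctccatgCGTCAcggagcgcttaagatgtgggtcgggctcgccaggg
Dusp1 (chr17:26508473-26508673, minus strand): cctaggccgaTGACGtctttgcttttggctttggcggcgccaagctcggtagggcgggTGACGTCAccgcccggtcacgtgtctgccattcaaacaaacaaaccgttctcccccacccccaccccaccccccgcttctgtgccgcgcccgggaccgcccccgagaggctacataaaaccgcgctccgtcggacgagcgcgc
Fos held 2 cores on its own strand, 129 and 66 bases before the start. Junb held 1 at 106 bases. Nr4a1 held 4, all on the opposite strand, between 233 and 36 bases before a start that lies inside the longest annotated span of the gene. Dusp1 held 1 core at 191 bases and the palindrome at 143 bases. Fosb held 1 core, 60 bases before its start, and Atf3 held 1, 7 bases before its start. None was found in Jun or Klf6.

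**Figure D1:**
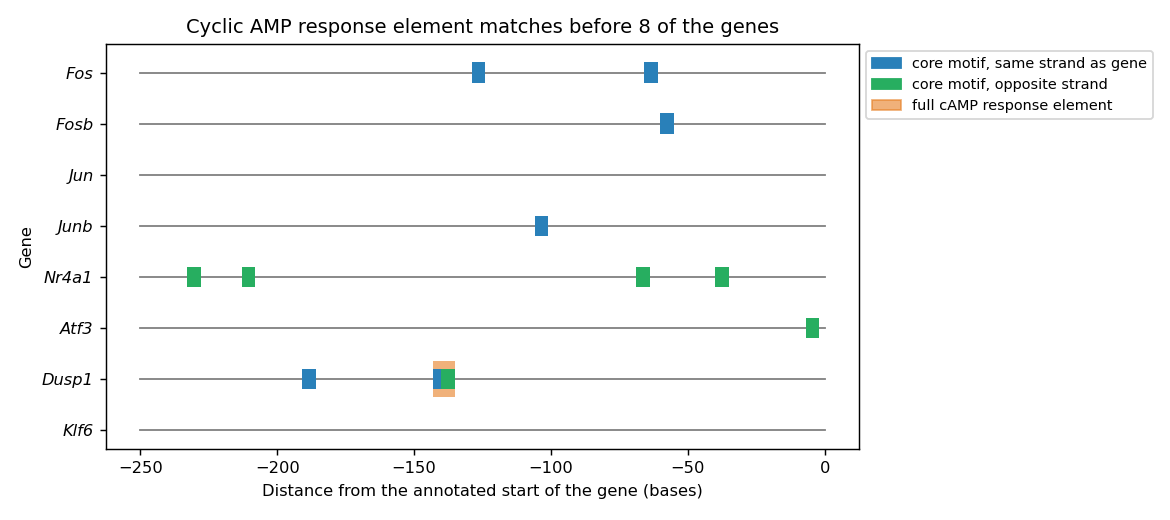
Positions of the core of the cyclic AMP response element before the start of 8 immediate early genes. The x axis is the distance from the annotated start in bases, each row is a gene, blue and green boxes are cores on the gene's strand and on the opposite strand, and the orange box is the full palindrome. Cores lie in 6 of the 8 rows, 4 of them in Nr4a1, and Jun and Klf6 have none.

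The library labelled KO held 24385843 UMIs and that labelled WT 35152477. Filtering kept 3211 cells labelled KO and 4370 labelled WT, whose median depths were 4266 and 4314.5 UMIs. Of their barcodes, 29 occurred in both libraries. Cells were assigned to types by marker genes that exclude the 10 members, which placed 2741 cells (85.4%) labelled KO and 3800 (87.0%) labelled WT. Cells with markers of more than 1 lineage, 130 (4.05%) and 174 (3.98%), were left out, and no doublet caller was run. Of 6 further markers per type that the assignment did not use, all were higher in their type than in the rest for each type described, except cDC2, with 5 of 6. Leading genes of migratory dendritic cells included Col1a1 and Col1a2, collagen genes of fibroblasts, and those of the T cells without CD4, CD8 or regulatory markers ("other T cells") included Il17a. The cells split unevenly between the libraries: neutrophils numbered 27 in the library labelled KO and 563 in that labelled WT, B cells 38 and 349, and CD8 T cells 380 and 224. The targeted gene goes against the label. Atpif1 stood at 695 CPM (counts scaled by the summed counts of the cells) over all gated leukocytes in the library labelled KO, against 560 CPM in that labelled WT, a log2 ratio of 0.31 (0.27 to 0.35), and in CD8 T cells the log2 ratio was 1.45 (1.09 to 1.83). How far 5′ counts report a deletion depends on the allele, which is not described.

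Levels were ranked over the 10 types with at least 20 cells in each library, which leaves out plasmacytoid dendritic cells and NK cells. Among these 10, neutrophils held the highest summed level of the family in both libraries. The 10 genes together made up 19134 CPM (18115 to 20195) of neutrophil RNA in the library labelled KO and 25691 CPM (25429 to 25956) in that labelled WT. Next among the 10 came the other T cells, with 8440 and 9137 CPM. At the low end stood regulatory T cells, with 4448 and 4299 CPM, although labelled KO their interval overlapped those of CD8 T cells, B cells and migratory dendritic cells. Between these lay CD4 T cells (7155 and 5985 CPM), cDC2 (6917 and 7093 CPM), cDC1 (6729 and 6862 CPM), monocytes or macrophages (5193 and 5399 CPM), migratory dendritic cells (4857 and 6176 CPM), B cells (4707 and 6409 CPM) and CD8 T cells (4626 and 6086 CPM), the library labelled KO first in each pair. Intervals of CD4 T cells and cDC2 labelled KO overlapped, as did those of cDC2 and cDC1 labelled WT, so the order of these neighbours is not set by the counts. Depth differed between types. Median UMIs labelled KO were 1475 in B cells, 1651 in neutrophils, 1858.5 in other T cells, 5658 in monocytes or macrophages and 10496 in cDC1. The part of depth in the order of types was not tested. Over the other gated leukocytes, neutrophils were higher by 1.74 on the log2 scale in the library labelled KO and by 2.12 in that labelled WT. The KO value rests on 27 cells whose free RNA share, estimated from melanoma transcripts, was 24.2%, against 4.57% in neutrophils labelled WT. Melanoma cells, 13 and 55 in number, held 739 and 817 CPM of the same genes. Empty droplets held 6774 and 8951 CPM.

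**Figure D2:**
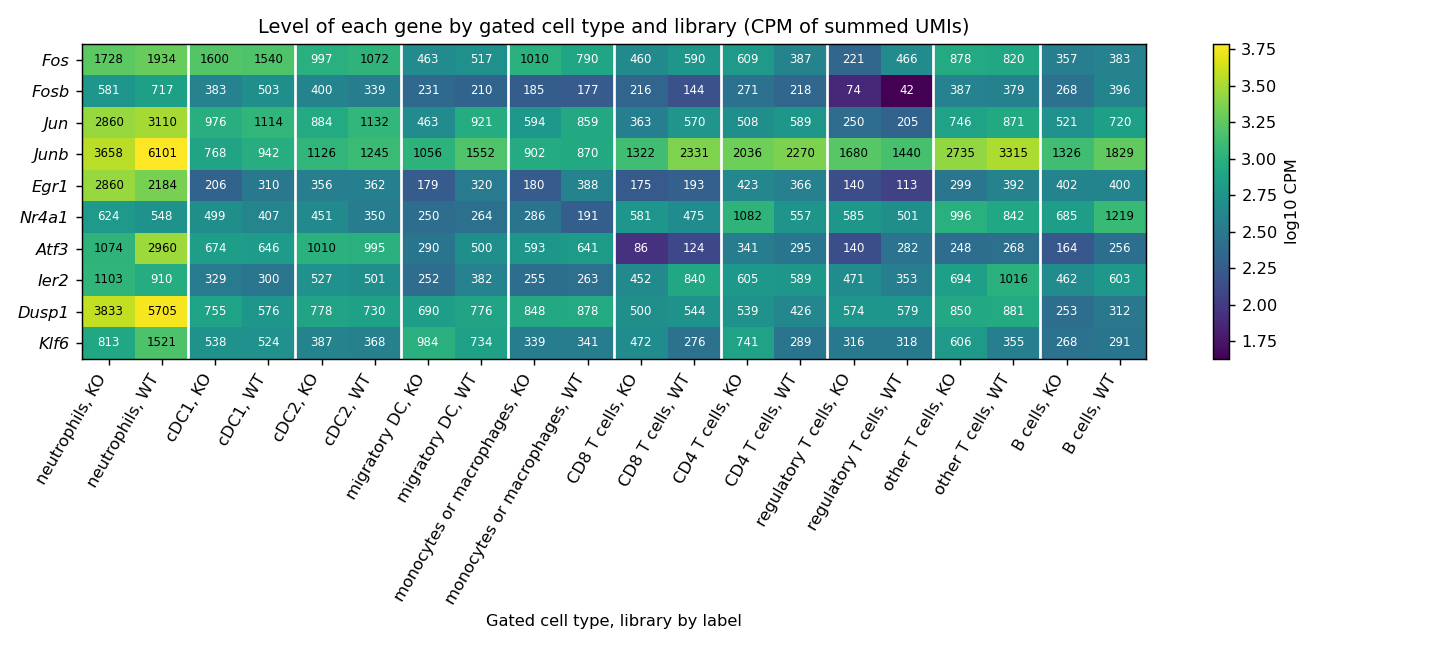
Level of each of the 10 genes in 10 gated cell types, in CPM of the summed UMIs of a type (numbers in the cells, colour on a log10 scale). Columns pair the library labelled KO with that labelled WT for each type, and rows are genes. The neutrophil columns are brightest for Jun, Junb, Egr1 and Dusp1, while Nr4a1 is brightest in CD4 T cells labelled KO (1082 CPM) and in B cells labelled WT (1219 CPM).

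The AP-1 genes did not share 1 order of the 10 cell types. Fos stood at 1728 CPM in neutrophils and 1600 CPM in cDC1 labelled KO, with overlapping intervals, against 1934 and 1540 CPM in the same types labelled WT. Its lowest level was 221 CPM in regulatory T cells labelled KO and 383 CPM in B cells labelled WT. Among the 10 types, Fosb was highest in neutrophils, at 581 and 717 CPM, and lowest in regulatory T cells, at 73.5 and 42.4 CPM. Jun had the same types at the ends of the 10, with 2860 and 3110 CPM in neutrophils and 250 and 205 CPM in regulatory T cells. Junb was also highest in neutrophils (3658 and 6101 CPM). Next came other T cells, with 2735 CPM labelled KO and 3315 CPM labelled WT. The lowest levels of Junb among the 10 types were 768 CPM in cDC1 labelled KO and 870 CPM in monocytes or macrophages labelled WT. Atf3 had neutrophils (1074 and 2960 CPM) on top too, followed by cDC2 (1010 and 995 CPM) and cDC1 (674 and 646 CPM). CD8 T cells were at the bottom for Atf3, with 85.5 CPM labelled KO and 124 CPM labelled WT. These are ranks of 1 gene over types. Levels of different genes were not compared, since a count depends on the gene's transcript.

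Egr1 and Dusp1 stood furthest above the next type in neutrophils. Egr1 stood there at 2860 CPM in the library labelled KO and 2184 CPM in that labelled WT, 6.8-fold and 5.5-fold over the next type. Dusp1, the phosphatase, was 4.5-fold and 6.5-fold over the next type, at 3833 and 5705 CPM. The next type was other T cells in both libraries, at 850 and 881 CPM, with intervals that overlapped those of monocytes or macrophages. Klf6 was highest in migratory dendritic cells labelled KO (984 CPM), with neutrophils at 813 CPM and overlapping intervals, but in neutrophils labelled WT (1521 CPM, against 734 CPM in migratory dendritic cells). Ier2 ranked neutrophils first in the library labelled KO, at 1103 CPM, and other T cells first in that labelled WT, at 1016 CPM, where neutrophils (910 CPM) had an overlapping interval. Nr4a1 alone ranked neutrophils first in neither library. CD4 T cells (1082 CPM) and other T cells (996 CPM) led in the library labelled KO, with overlapping intervals, and B cells (1219 CPM) led in that labelled WT, ahead of other T cells (842 CPM). Its lowest levels were 250 CPM in migratory dendritic cells labelled KO and 191 CPM in monocytes or macrophages labelled WT.

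Over the 20 profiles of 10 types in 2 libraries, Egr1 (Pearson r = 0.88) and Jun (r = 0.86) followed the mean of the other 9 members most closely and Nr4a1 least (r = 0.14). Pairs that ran together included Junb with Ier2 (r = 0.89), Jun with Egr1 (r = 0.87) and Fos with Jun (r = 0.81), whereas Nr4a1 and Atf3 had r = -0.30. The profiles share libraries and the high neutrophil values, so these coefficients describe the 20 profiles and were not tested. Among 8848 other genes, those whose profile was most like the mean of the members included Ier5, an early response gene (r = 0.91), Btg2, an antiproliferative early gene (r = 0.90), Lyst, the lysosomal trafficking regulator (r = 0.89), and Tiparp, a poly-ADP-ribosyltransferase (r = 0.89). Ier5 stood at 1960 CPM in neutrophils labelled KO and 2445 CPM in those labelled WT, the highest of its levels over the 20 profiles.

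Single cells were compared after each was thinned to 1000 UMIs, the depth of the shallowest cell kept. A neutrophil then held a median of 7 of the 10 genes in either library, and 24 of its 1000 UMIs in the library labelled KO and 28 in that labelled WT came from them. Shares of neutrophils with 4 or more of the genes were 92.6% (75.7 to 99.1) and 96.3% (94.4 to 97.7). Other T cells followed, with 62.6% and 59.0%. In CD8 T cells the share was 42.6% (37.6 to 47.8) labelled KO and 47.8% (41.1 to 54.5) labelled WT, with overlapping intervals. Monocytes or macrophages had close shares with 4 or more, 44.6% and 44.2%, but the cells with none of the genes were 6.29% (5.03 to 7.76) labelled KO and 16.1% (14.4 to 18.0) labelled WT. Before thinning, these cells had medians of 5658 and 7164 UMIs. Their summed level was 7090 and 7020 CPM in cells of 1000 to 2500 UMIs, and 3420 and 2281 CPM above 20000 UMIs. The part of this depth in the shares was not tested. Free RNA adds UMIs to such shares. As a background from cells with the lowest levels, 46.2% of melanoma cells labelled KO and 49.1% of those labelled WT held any of the 10 genes at the same 1000 UMIs, at unthinned medians of 33038 and 50827 UMIs.

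**Figure D3:**
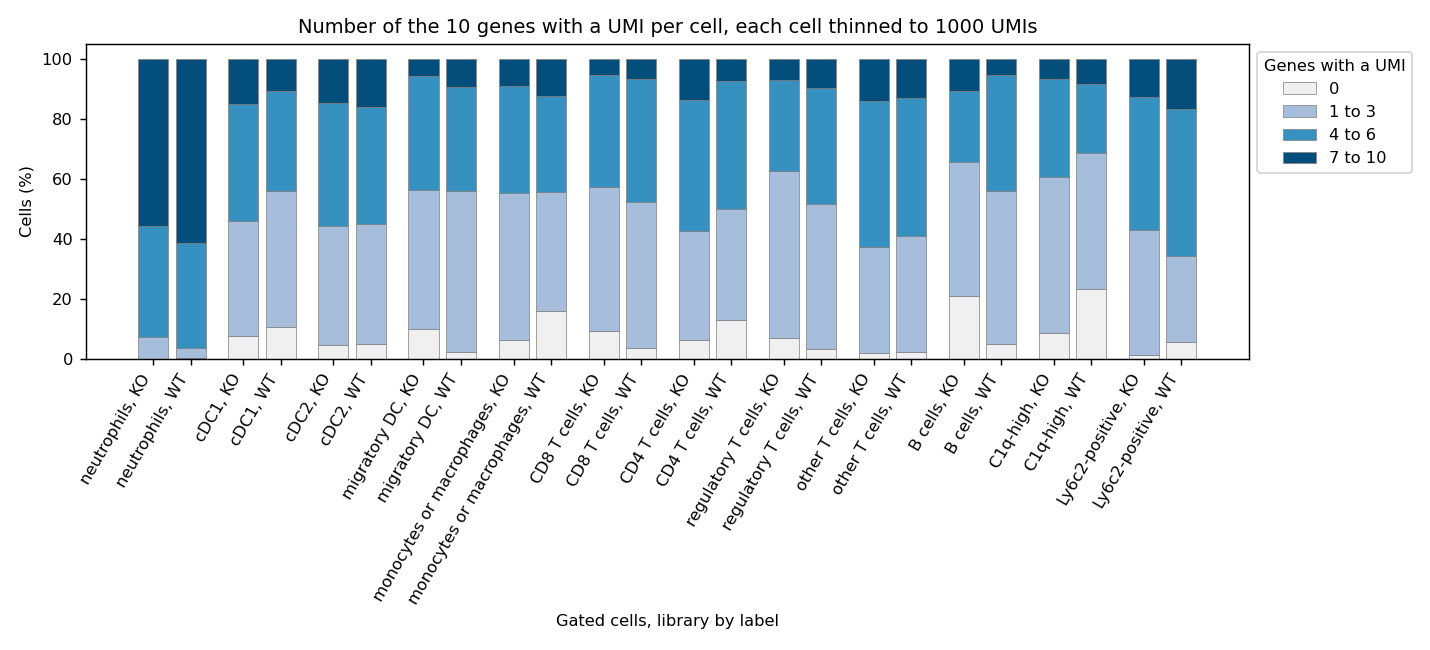
Share of cells (y axis, percent) with a UMI of 0, 1 to 3, 4 to 6 or 7 to 10 of the 10 genes, each cell thinned to 1000 UMIs. Bars pair the library labelled KO with that labelled WT for each gated type and for 2 sub-gates of monocytes or macrophages. The darkest band is tallest in neutrophils, and the palest band, cells with none, covers 8.56% of C1q-high cells labelled KO and 23.4% of those labelled WT.

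Some pairs of members tended to occur in the same cells, depending on the type. Among monocytes or macrophages labelled KO, Jun was found in 40.4% (36.8 to 44.1) of Fos-positive and 32.0% (28.2 to 36.0) of Fos-negative cells at 1000 UMIs. The same shares labelled WT were 62.9% (59.1 to 66.6) and 35.8% (32.8 to 38.8). Dusp1 was found in 55.3% of Fos-positive and 38.0% of Fos-negative cells labelled KO, against 60.7% and 28.6% labelled WT. The gap between Fos-positive and Fos-negative cells was thus wider in the library labelled WT for both genes. In CD8 T cells, Junb was found in 76.9% of Fos-positive and 54.9% of Fos-negative cells labelled KO, and in 88.2% and 78.4% labelled WT, where the intervals overlapped. Klf6 in CD8 T cells labelled WT showed no such gap, with 23.5% of Fos-positive and 23.0% of Fos-negative cells. Neutrophils labelled WT had overlapping intervals for every pair compared, such as Junb in 96.5% of Fos-positive and 94.2% of Fos-negative cells.

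The comparison of genotypes came next, as the log2 ratio of CPM, KO-labelled over WT-labelled, within a type. A gene counted as higher or lower when the ratio reached 1.5-fold, a rule of size and not a test, over genes with at least 20 UMIs in both libraries together. All 10 members passed that minimum in each of the 10 types. Among CD8 T cells, Klf6 and Fosb were higher and Junb, Ier2 and Jun lower, 2 and 3 of 10, where 28.8% of 6986 genes were higher and 7.3% lower. Junb stood at 1322 CPM labelled KO and 2331 CPM labelled WT, a log2 ratio of -0.82 (-0.91 to -0.73). Ier2 stood at 452 and 840 CPM (-0.89, -1.05 to -0.73) and Jun at 363 and 570 CPM (-0.65, -0.84 to -0.47). Klf6 went the other way, with 472 CPM labelled KO and 276 CPM labelled WT, a ratio of 0.78 (0.55 to 1.00). Fosb, at 216 and 144 CPM, had a ratio of 0.59 (0.27 to 0.91), and Nr4a1, at 581 and 475 CPM, one of 0.29 (0.11 to 0.47). Intervals of Egr1 (-0.14, -0.44 to 0.16) and Dusp1 (-0.12, -0.30 to 0.05) included 0. The summed members had a ratio of -0.40 (-0.45 to -0.34). The median ratio of all genes in CD8 T cells was 0.27 and that of the members -0.25. Relative to the median of all genes, the sum stood at -0.67, Klf6 at 0.51 and Nr4a1 at 0.02.

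**Figure D4:**
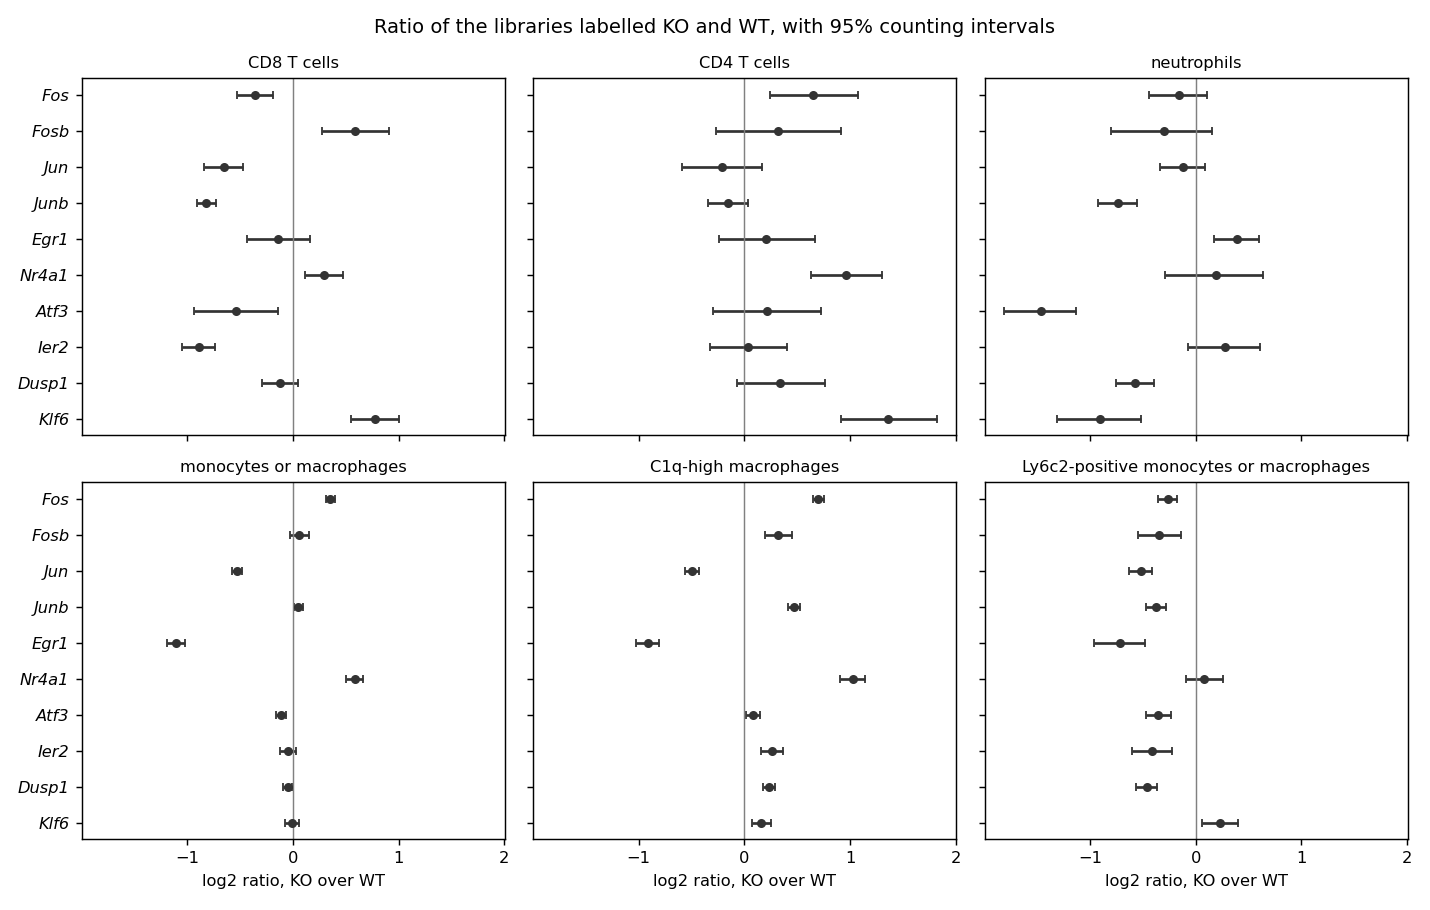
Log2 ratio of CPM, KO-labelled over WT-labelled (x axis), for each of the 10 genes (rows) in 6 gated groups of cells, with 95% counting intervals as bars; points right of the line at 0 are higher in the library labelled KO. Klf6 lies to the right and Junb and Ier2 to the left in CD8 T cells, and Fos, Junb and Nr4a1 lie to the right in C1q-high cells but Fos and Junb to the left in Ly6c2-positive cells.

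Depth moved with some of these ratios. CD8 T cells of 1000 to 2500 UMIs held 6809 CPM of the members labelled KO and 7527 CPM labelled WT, and those of 5000 to 10000 UMIs held 3597 and 5282 CPM. Junb was below 0 in each of 3 depth ranges, at -0.55, -0.62 and -1.11 from the shallowest to the deepest, and Klf6 was above 0 in each, at 1.18, 0.89 and 0.85. Ier2 lay between -1.05 and -0.82 over the same ranges. Jun stood at -0.23, with an interval that includes 0, -0.37 and -1.22 over the ranges, and its 1.5-fold call was lost on thinning to 1000 UMIs (-0.34). The call of Fosb was lost at stricter limits of 2000 UMIs and 800 genes (0.46). Fos, at 460 CPM labelled KO and 590 CPM labelled WT with a ratio of -0.36 (-0.53 to -0.19), did not keep its direction. Fos stood at 0.08 and 0.18 below 5000 UMIs, with intervals that include 0, and at -1.08 (-1.49 to -0.67) above. With each cell thinned to 1000 UMIs the ratio of Fos was -0.01.

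Sub-gates of CD8 T cells were split by naive and checkpoint genes, and differed in size: 137 and 121 cells were naive-like, 158 and 29 checkpoint-positive, and 85 and 74 neither, labelled KO and WT. Junb was below 0 in all 3, in the order naive-like, checkpoint-positive and neither, with ratios of -0.63 (-0.77 to -0.48), -0.72 (-0.92 to -0.51) and -0.42 (-0.62 to -0.24), and Klf6 was above 0 in all 3, with 0.71, 0.56 and 0.96. Nr4a1 split them. In naive-like cells it stood at 636 CPM labelled KO and 349 CPM labelled WT, a ratio of 0.87 (0.57 to 1.17), and in checkpoint-positive cells at 488 and 625 CPM, a ratio of -0.36 (-0.68 to -0.02). Fosb was higher labelled KO in naive-like cells, at 234 and 103 CPM (1.18, 0.65 to 1.73), and Atf3 was lower in checkpoint-positive cells, at 58.6 and 137 CPM (-1.22, -1.99 to -0.41). At the rule of 1.5-fold, naive-like cells had 3 members higher and 2 lower, where 15.5% and 9.81% of genes were, and checkpoint-positive cells had 0 higher and 3 lower, where 28.7% and 12.4% were. In the cells with neither set of genes, 2 members were higher and 0 lower, against 16.9% and 10.3% of genes. The summed ratios were -0.19, -0.33 and -0.08 in naive-like cells, checkpoint-positive cells and cells with neither.

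**Figure D5:**
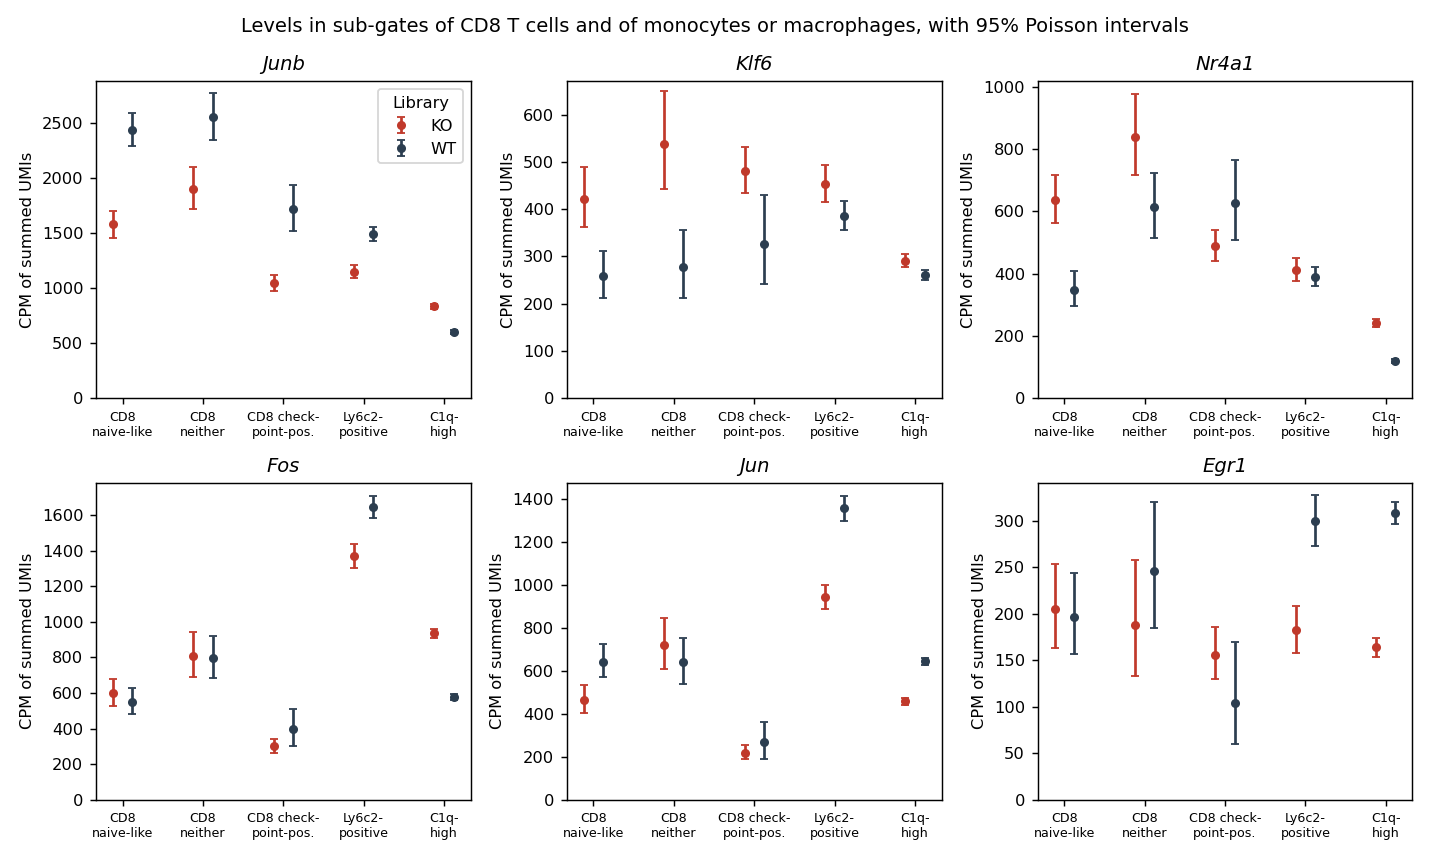
Levels of 6 genes (y axis, CPM of summed UMIs, each panel from 0) in 3 sub-gates of CD8 T cells and 2 of monocytes or macrophages. Red points are the library labelled KO and dark points that labelled WT, with 95% Poisson intervals. Junb sits lower and Klf6 higher in the library labelled KO in all 3 CD8 sub-gates, and Egr1 and Jun sit lower in it in both myeloid sub-gates.

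CD4 T cells shared the Klf6 difference and not the Junb one. Klf6 stood at 741 CPM in 94 cells labelled KO and 289 CPM in 54 cells labelled WT, a ratio of 1.36 (0.91 to 1.82). Nr4a1 stood at 1082 and 557 CPM (0.96, 0.63 to 1.30) and Fos at 609 and 387 CPM (0.65, 0.24 to 1.08). These 3 of 10 were higher and none lower, where 18% and 11.2% of 2662 genes were. The call of Fos was lost under several settings. Among them were limits of 2000 UMIs and 800 genes (0.50), thinning to 1000 UMIs (0.45) and leaving out cells over 20000 UMIs (0.38). Junb had 2036 CPM labelled KO and 2270 CPM labelled WT, with an interval that includes 0 (-0.35 to 0.03). Other T cells held Klf6 at 606 and 355 CPM (0.77, 0.56 to 0.98), the 1 member called, where 14.1% of genes were higher and 8.17% lower. Ier2 there stood at 694 and 1016 CPM (-0.55) and Junb at 2735 and 3315 CPM (-0.28). In regulatory T cells, 43 labelled KO and 31 labelled WT, Fos stood at 221 and 466 CPM (-1.08, -1.61 to -0.55) and Atf3 at 140 and 282 CPM (-1.02, -1.69 to -0.34). These were the 2 members lower, Fosb was the 1 higher on counts whose interval includes 0, and 14.9% and 14.6% of all genes were lower and higher. B cells, 38 and 349, held Nr4a1 at 685 and 1219 CPM (-0.83, -1.29 to -0.40). With Atf3, at 164 and 256 CPM and an interval that includes 0, 2 members were lower and 0 higher, where 25.2% and 20.7% of genes were. Across the 10 types, Nr4a1 was above 0 in 8 and Klf6 in 6, while Jun was below 0 in 9 and Junb in 8. These counts of signs include ratios whose intervals include 0, such as Klf6 in cDC1 (0.04, -0.12 to 0.20). All types come from the same 2 libraries, and signs were not counted over all genes.

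Monocytes or macrophages, 1287 and 1667 cells, had a summed ratio near 0, -0.06 (-0.07 to -0.04), made of members that moved apart. Egr1 stood at 180 CPM labelled KO and 388 CPM labelled WT, a ratio of -1.11 (-1.19 to -1.03), the 1 member past 1.5-fold, where 6.46% of 11144 genes were higher and 7.59% lower. Jun stood at 594 and 859 CPM (-0.53, -0.58 to -0.48). On the other side, Nr4a1 stood at 286 and 191 CPM (0.58, 0.50 to 0.66) and Fos at 1010 and 790 CPM (0.35, 0.31 to 0.39). Ratios of Junb, Fosb, Ier2, Dusp1 and Klf6 lay between -0.05 and 0.06, and Atf3 was at -0.11. In empty droplets, Egr1 was also lower labelled KO, at 383 CPM, against 770 CPM labelled WT. Its part in the cell values was not tested. With the expected free RNA subtracted, the ratio of Egr1 in C1q-high cells was -0.98, against -0.91 as counted.

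C1q-high cells, which express complement genes of mature macrophages, numbered 818 labelled KO and 919 labelled WT and carried the higher ratios. Nr4a1 stood at 242 and 119 CPM (1.02, 0.91 to 1.14), Fos at 937 and 576 CPM (0.70, 0.65 to 0.76) and Junb at 833 and 600 CPM (0.47, 0.42 to 0.53). Egr1 stood at 164 and 308 CPM (-0.91, -1.02 to -0.81) and Jun at 458 and 645 CPM (-0.49, -0.56 to -0.43). Past 1.5-fold, 2 members were higher and 1 lower, where 6.98% and 8.2% of genes were. The call of Fos fell just short on thinning, at 0.577. In Ly6c2-positive cells, which resemble monocytes and numbered 205 and 248, Fos stood at 1369 CPM labelled KO and 1646 CPM labelled WT (-0.27, -0.36 to -0.18), Junb at 1147 and 1488 CPM (-0.38, -0.47 to -0.28) and Nr4a1 at 411 and 389 CPM (0.08, -0.10 to 0.25). Egr1 and Jun were below 0 there too, at -0.72 and -0.52, and Egr1 was the 1 member called, where 12.5% of genes were higher and 10.6% lower. In the remaining monocytes or macrophages, Egr1 at 243 and 631 CPM (-1.38, -1.54 to -1.21) was again the 1 member called, where 11.1% of genes were higher and 9.78% lower. Over all gated leukocytes, Egr1 (-1.08) and Jun (-0.63) were the 2 members lower and none was higher, where 9.53% and 8.51% of genes were. That sum mixes types whose cell numbers differ between the libraries, neutrophils among them. The summed ratio was 0.21 (0.19 to 0.24) in C1q-high and -0.34 (-0.38 to -0.31) in Ly6c2-positive cells. Cells between 500 and 2000 CPM of C1q transcripts, near the limit of 1000, were 10.6% of monocytes or macrophages labelled KO and 9.06% labelled WT.

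Depth moved with the C1q-high sum as well. C1q-high cells had medians of 6198.5 UMIs labelled KO and 8330 labelled WT. The summed ratio was 0.35 in cells of 1000 to 2500 UMIs, 0.22 in those of 2500 to 5000, -0.01 in those of 5000 to 10000, -0.16 in those of 10000 to 20000 and 0.92 above 20000, the last from 21 and 56 cells. Fos (0.37 to 1.48), Junb (0.13 to 1.21) and Nr4a1 (0.47 to 2.42) were above 0 in all 5 ranges. Egr1 (-1.53 to -0.11) and Jun (-1.02 to -0.25) were below 0 in all 5, although above 20000 UMIs the intervals of both included 0, as did that of Egr1 below 2500 UMIs. Atf3, Fosb, Dusp1, Ier2 and Klf6 changed sign between ranges. In Ly6c2-positive cells the sum was below 0 in both ranges with at least 20 cells in each library.

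Neutrophils held lower levels of 3 members labelled KO. Atf3 stood at 1074 CPM in 27 cells labelled KO and 2960 CPM in 563 labelled WT, a ratio of -1.46 (-1.81 to -1.13), Klf6 at 813 and 1521 CPM (-0.90, -1.31 to -0.52) and Junb at 3658 and 6101 CPM (-0.74, -0.92 to -0.56). None was higher past 1.5-fold, and 38.8% and 16.8% of genes were higher and lower. Dusp1 stood at 3833 and 5705 CPM (-0.57, -0.76 to -0.40). The free RNA share of 24.2% labelled KO moves with these values. After its subtraction the summed ratio was -0.23, against -0.43 as counted, with Atf3 at -1.402 and Klf6 at -0.80. Junb was then at -0.53, no longer past 1.5-fold, and Egr1, at 0.39 as counted, was past it at 0.67. The median ratio of all genes with UMIs in both libraries was 0.20.

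Among dendritic cells, the conventional types had summed ratios near 0. In cDC1, which cross-present antigen, the sum had a ratio of -0.03 (-0.07 to 0.02). Egr1 was the 1 member past 1.5-fold, at 206 CPM labelled KO and 310 CPM labelled WT (-0.59, -0.82 to -0.35), a call lost on thinning (-0.50), where 8.22% of genes were lower and 10.5% higher. Dusp1 stood at 755 and 576 CPM (0.39, 0.24 to 0.54). In cDC2 no member passed 1.5-fold, where 7.58% of genes were higher and 9.36% lower. The ends of the range were Nr4a1, at 451 and 350 CPM (0.37, 0.23 to 0.50), and Jun, at 884 and 1132 CPM (-0.36, -0.44 to -0.27). Migratory dendritic cells, 71 and 127, had 4 members lower and none higher, where 15% and 13.7% of genes were. Jun stood at 463 and 921 CPM (-0.99, -1.22 to -0.78), Egr1 at 179 and 320 CPM (-0.84), Atf3 at 290 and 500 CPM (-0.78) and Ier2 at 252 and 382 CPM (-0.60). With cells thinned to 1000 UMIs, Egr1 was at 0.23 and Ier2 at -0.068, so that these 2 calls did not hold. Klf6 was the member above 0 by most, at 984 and 734 CPM (0.42, 0.25 to 0.60).

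T cell receptor sequences were used to compare the family between clones. A beta chain was found in 203 of 889 gated T cells labelled KO (22.8%) and 172 of 619 labelled WT (27.8%), and in 4 and 3 gated cells of other types. Clones seen in more than 1 cell numbered 14 labelled KO and 9 labelled WT, and the largest held 24 and 2 cells. Cells of expanded clones held 3518 CPM of the 10 genes labelled KO (97 cells), against 4443 CPM in cells of single clones (106 cells), a log2 ratio of -0.34 (-0.43 to -0.25). In the library labelled WT the levels were 3797 CPM in 18 cells of expanded clones and 5758 CPM in 154 cells of single clones (-0.60, -0.78 to -0.42). Jun was lower in expanded clones of both, at -1.18 (-1.56 to -0.80) labelled KO and -1.75 (-2.77 to -0.89) labelled WT, and Junb was at -0.60 and -0.45. Fos was at -0.33 labelled KO and -1.72 labelled WT, the second from 12 UMIs in expanded clones. Restricted to CD8 T cells, the sum labelled KO was at 0.03 (-0.10 to 0.16), from 82 and 44 cells, while Junb was at -0.42 (-0.64 to -0.18) and Dusp1 at 0.58 (0.17 to 1.01). Jun in these cells was at -0.39 (-0.94 to 0.18), with an interval that includes 0. In CD8 T cells labelled WT the sum was at -0.76 (-1.20 to -0.35), but the 5 expanded cells held 50 UMIs of the family in all. Median UMIs were 5018 in expanded and 3074 in single clones labelled KO, and 3680 and 3378.5 labelled WT, and the part of this depth was not tested. Labelled KO, CD8 T cells were 82 of the 97 expanded and 44 of the 106 single cells. The part of this mix of types was not tested either. Without the largest clone, the ratio labelled KO was -0.49.

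Other genes of the early response gave context in CD8 T cells and in monocytes or macrophages. In CD8 T cells the counts below stand beside 28.8% of all genes higher and 7.3% lower. Of 16 other inducible transcription factors, 14 were measured in CD8 T cells, with 2 higher and 4 lower and a median of -0.27. The lowest were Maff (-1.43), a small MAF factor, and Csrnp1 (-1.06), and the highest Bhlhe40 (0.79) and Nr4a2 (0.70), a relative of Nr4a1. Of 21 feedback and early response genes, 2 were higher and 5 lower, with a median of -0.23. Socs3, which curbs cytokine signalling, was at -1.55 and Zfp36, which destabilises AU-rich RNAs, at -0.99, and at the other end Rgs1 was at 1.26 and Dusp6 at 0.84 with an interval that includes 0. Of 15 upstream kinases and factors measured, 6 were higher and 0 lower, with a median of 0.22, from Creb1 (-0.33) and Nfatc2 (-0.29), both with intervals that include 0, to Nfatc1 (1.23) and Mapk3, which encodes ERK1 (1.29). Of 11 genes induced by the T cell receptor, 5 were higher and 3 lower, with a median of 0.21, from Irf4 (-1.43) and Egr2 (-0.92) to Tnfrsf9 (1.74) and the chemokine Xcl1 (3.59). Xcl1 stood at 674 CPM labelled KO and 55.9 CPM labelled WT. This list overlaps that of the other inducible factors, so Nr4a2 was counted as higher and Egr2 as lower in both. Of 14 heat shock and chaperone genes, 2 were higher and 1 lower, with a median of -0.03, from Dnajb1 (-0.66) and Hspa5 (-0.37) to Hspd1 (0.59) and Hspb1 (1.74). All genes tested had a median of 0.27 in these cells.

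In monocytes or macrophages, where all genes had a median of -0.01 with 6.46% higher and 7.59% lower, the 16 other inducible factors had 4 higher and 3 lower and a median of -0.08. Nr4a2 was at 1.36 and Egr2 at 1.06, while Fosl1, a further FOS protein gene, was at -1.39 and Maff at -0.86. Egr2 and Egr1 of the same family thus stood on opposite sides. Egr2 had 78.4 CPM labelled KO and 37.7 CPM labelled WT. Feedback genes had 3 higher and 6 lower of 21 and a median of -0.27. Nfkbia, the NF-κB inhibitor, stood at 369 CPM labelled KO and 1210 CPM labelled WT (-1.71, -1.77 to -1.66) and Dusp4 at -2.51, against Btg2 at 0.93 and Rgs2 at 0.76. Of 12 measured genes on the T cell receptor list, 7 were higher and 2 lower, with a median of 0.87. This list overlaps that of the other inducible factors. Egr2, Egr3, Nr4a2 and Nr4a3 were counted as higher in both lists and Myc as lower in both. Tnf, the inflammatory cytokine, was at -1.78 and Myc at -0.81, while Xcl1 (1.87) and Tnfrsf4 (1.55) rest on 18 UMIs each labelled KO, in cells that should lack them. Heat shock genes had 0 higher and 1 lower of 14, with a median of -0.06, from Dnajb1 (-0.73) and Hspb1 (-0.48) to Hspe1 (0.25) and Hspa1b (0.28). None of the 16 upstream genes passed 1.5-fold. Their median was 0.08, and they ran from Map2k2 (-0.23) and Creb1 (-0.16) to Mef2d (0.40) and Elk4 (0.48).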

How the data were processed

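The files hold whole-number UMI counts per gene and droplet from 5′ single-cell libraries, deposited as raw matrices of all droplets. Per the submitters' processing notes, the tools named were Cell Ranger 3.1.0, Seurat 3.2.0 and R 3.6.1 and the build mm10, without roles. The T cell receptor contig tables were also deposited by the authors. Here cells were kept at 1000 or more UMIs, 500 or more genes and at most 10% mitochondrial UMIs, and assigned by at least 3 markers of a type. UMIs of a type were summed per library and expressed as CPM with exact Poisson intervals. Ratios had exact conditional binomial intervals, and shares exact Clopper-Pearson intervals, at 95%. PCR duplicates are removed by UMIs, and the intervals cover counting error only. Free RNA was estimated from melanoma markers in empty droplets of 10 to 100 UMIs. Python 3.11.15, numpy 2.4.6, scipy 1.17.1 and pandas 2.3.3 were used, and the scripts were tested on simulated data. Named genes were all 10 members in every type with at least 20 cells in each library, the 5 genes most like them in log2(CPM + 10) among those with at least 200 UMIs (1 of these is not reported here), and the 2 highest and 2 lowest of each list. Plasmacytoid dendritic cells fall outside that rule. The members and lists were chosen with earlier results of these data known.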

Additional observations from a re-analysis of the deposited data

Results flagged for a closer look

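Several members had opposite signs in 2 groups of cells, with counting intervals on either side of 0. None of these differences was tested, since there was 1 library per genotype. Such opposite signs were not counted over all genes either. Fos had a log2 ratio, KO-labelled over WT-labelled, of -0.36 in CD8 T cells, of 0.65 in CD4 T cells and of 0.35 in monocytes or macrophages. The CD8 value of Fos was near 0 once cells were thinned to 1000 UMIs. Its CD4 value was 0.45 on the same thinning and 0.38 without cells over 20000 UMIs. Junb had -0.82 in CD8 T cells and 0.05 in monocytes or macrophages, where it turned to -0.028 without cells over 20000 UMIs.

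Within monocytes or macrophages, C1q-high and Ly6c2-positive cells stood on opposite sides for 6 members. The share of all genes that did so was not counted, so the 6 have no background to be set against. Fos had 0.70 in C1q-high and -0.27 in Ly6c2-positive cells, Fosb 0.32 and -0.34, and Junb 0.47 and -0.38. Atf3 had 0.08 and -0.35, Ier2 0.26 and -0.42, and Dusp1 0.23 and -0.47. Of these 6, Fos and Junb kept their sign in C1q-high cells in all 5 depth ranges and the other 4 did not. Differences between these groups of cells were not tested.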

How the results depend on the processing

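No paired analysis was possible because each genotype had 1 pooled library, so no replicate could be left out or blocked either. Values are log2 ratios. Leaving out cells over 20000 UMIs gave the sum -0.34 in CD8 T cells, 0.10 in CD4 T cells, 0.14 in cDC1, -0.13 in monocytes or macrophages, -0.43 for expanded over single clones labelled KO and 2.06 for neutrophils over other cells labelled WT. Means of single-cell CPM gave -0.19 in CD8 T cells, 0.11 in cDC1, -0.083 in monocytes or macrophages, -0.46 for clones labelled KO, and 1.94 and 2.14 for neutrophils labelled KO and WT. Thinning to 1000 UMIs gave -0.20 in CD8 T cells, 0.18 in cDC1, -0.077 in monocytes or macrophages, -0.63 for clones labelled KO, and 1.95 and 2.15 for neutrophils. Minus the median of all genes the values were -0.67 in CD8 T cells, 1.55 and 2.86 for neutrophils, and -0.48 and -0.86 for clones labelled KO and WT. Without the most abundant member they were -0.18 in CD8 T cells, 0.46 in CD4 T cells, -0.078 in monocytes or macrophages, -0.22 for clones labelled KO and 2.04 for neutrophils labelled WT. At least 2000 UMIs and 800 genes gave 0.14 in CD4 T cells, and 1.08 and 1.82 for neutrophils, and at least 500 UMIs and 250 genes 2.10 and 2.201. At most 5% mitochondrial UMIs gave 0.37 in CD4 T cells, -0.081 in monocytes or macrophages, and 1.64 and 2.09 for neutrophils. At least 2 markers gave -0.10 in cDC1 and 2.10 for neutrophils labelled WT. Free RNA subtraction gave 1.99 and 2.19 for neutrophils. Without the largest clone, an alternative chosen after seeing the data, clones labelled KO stood at -0.49. At least 50 UMIs left 1 chaperone gene higher in CD8 T cells, against 2.

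Of 1182 values for 128 single-member and further summed ratios, 1039 moved by less than the counting interval. The sign differed from that of the main value in 78, over 36 results, 73 of them where the main interval included 0. The other 5 were Atf3 in CD8 T cells (0.14), Jun in cDC1 (0.067) and Egr1 in migratory dendritic cells (0.23), all on thinning, Egr1 in neutrophils at 2000 UMIs (-0.037), and Junb in monocytes or macrophages without cells over 20000 UMIs (-0.028). The cause was not tested. C1q limits of 500 or 2000 CPM, also added later, gave C1q-high sums of 0.18 and 0.22. Types with few cells, such as the 27 neutrophils and 38 B cells labelled KO, have wide counting intervals.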

Other observations

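Plasmacytoid dendritic cells, a type with 12 cells labelled KO and 62 labelled WT that was singled out after its values were seen, held 10701 CPM (9855 to 11600) of the 10 genes labelled KO and 4964 CPM (4714 to 5225) labelled WT. Jun stood at 3446 and 1518 CPM, Fos at 1941 and 822 CPM, Klf6 at 1723 and 511 CPM and Atf3 at 1179 and 348 CPM. Junb (236 and 342 CPM), Dusp1 (90.7 and 135 CPM) and Egr1 (36.3 and 47.3 CPM, from 2 and 14 UMIs) were not among the higher ones, so AP-1 genes such as Jun and Fos were high in cells with little Egr1. With 12 cells, a few cells set these values.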
